A study of Mus musculus with 10 samples.

Results

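The genes described here are 32 interferon-induced and double-stranded RNA (dsRNA) sensing genes, read in heart ventricle mRNA of Trbp conditional knockout and wild-type mice. They were chosen by symbol from the gene column of the mRNA count table, and all 32 were found among 23360 genes. Ventricle RNA came from C57BL/6 mice at the age of 2 weeks, from 2 libraries of the conditional Trbp knockout (Trbp-cKO) and 2 libraries of wild type (WT). The labels name neither the Cre driver nor the cells in which the gene was deleted. Nor do they tie a replicate to an animal of its own, and p-values therefore reflect the spread of these libraries, which may be technical. Small RNA libraries of the same study, from younger hearts, were not used here. Levels are CPM, counts relative to the TMM-scaled library total, which are not divided by transcript length, so levels are compared between libraries and not between genes. Changes are given as the log2 fold change of Trbp-cKO over WT ± its standard error (SE).

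Trbp, encoded by Tarbp2, binds double-stranded RNA, partners Dicer in miRNA processing and is known to restrain the dsRNA-activated kinase PKR. Innate sensing of dsRNA starts at receptors such as RIG-I (Ddx58), MDA5 (Ifih1) and the endosomal Tlr3, and RIG-I and MDA5 signal through the mitochondrial adaptor Mavs. That signal activates Irf3 and Irf7, which switch on type I interferon genes. Secreted interferon then acts through a complex that includes Stat2 and Irf9 and binds interferon-stimulated response elements and induces effector genes such as the Ifit, Oas and Mx families. The comparison sets the levels of these genes in Trbp-cKO ventricles beside those in WT ventricles.

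The promoters below, of 4 effector genes picked as examples, hold core letters of the interferon-stimulated response element, beside that of Mavs, which holds none. Not every effector gene had such letters, and Ifit2 had none in the longer window described below. Each window is the 150 bases just before the annotated start (RefSeq, GRCm38.p6), read on the gene's own strand. For Ifit3 the start in the promoter table lies inside the annotated gene span (34583119 to 34588982), and for the other 4 it is the first base of the span on their strand. Capitals mark the core letters of the interferon-stimulated response element, GAAANNGAAA, or its other strand, TTTCNNTTTC. Ifit1 (chr19:34640739-34640888, plus strand) holds 2 matches, Ifit3 (chr19:34583379-34583528, plus strand) 1, Isg15 (chr4:156200819-156200968, minus strand) 3 that overlap one another, and Rsad2 (chr12:26456453-26456602, minus strand) 1. The window of Mavs (chr2:131233913-131234062, plus strand) has 0 matches.
Ifit1: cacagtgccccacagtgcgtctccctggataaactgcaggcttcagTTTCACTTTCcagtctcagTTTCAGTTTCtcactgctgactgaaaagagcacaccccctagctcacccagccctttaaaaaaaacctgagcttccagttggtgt
Ifit3: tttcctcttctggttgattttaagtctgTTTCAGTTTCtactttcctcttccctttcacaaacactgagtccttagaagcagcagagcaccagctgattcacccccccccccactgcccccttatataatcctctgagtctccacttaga
Isg15: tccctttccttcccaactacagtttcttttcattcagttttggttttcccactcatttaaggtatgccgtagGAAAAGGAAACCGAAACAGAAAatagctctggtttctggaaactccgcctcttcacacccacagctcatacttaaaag
Rsad2: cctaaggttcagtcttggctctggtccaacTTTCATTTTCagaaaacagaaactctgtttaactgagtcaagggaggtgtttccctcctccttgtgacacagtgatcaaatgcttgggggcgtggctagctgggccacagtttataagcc
Mavs: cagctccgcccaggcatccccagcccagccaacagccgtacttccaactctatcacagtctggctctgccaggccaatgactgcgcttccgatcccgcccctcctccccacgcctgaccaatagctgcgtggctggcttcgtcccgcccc

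Over a longer window, from 250 bases before to 50 after the start, 24 of the 32 genes had a sequence in RefSeq. The response element core was found in 13 of the 24 (54.2%), against 3.99% of 27025 genes with such a window. These were Ifit1, Ifit3, Isg15, Oas1a, Oas3, Stat2, Rsad2, Bst2, Ddx58, Ifih1, Gbp2, Gbp3 and Ifitm3. Letters of the gamma-activated site, TTCNNNGAA, which reads the same on both strands, were in 5 of the 24 (20.8%) against 9.55% of all. The 5 were Ifit2, Oas1a, Irf1, Bst2 and Ifitm3, and the site overlaps a response element core in Bst2 and Ifitm3. These matches describe letters and not binding.

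The libraries held 13156455 and 13540485 counts in Trbp-cKO replicates 1 and 2, against 13113013 and 10151177 in WT replicates 1 and 2. The targeted gene Tarbp2 had 3.87 and 3.89 CPM in Trbp-cKO, against 12.7 and 11.5 CPM in WT (-1.64 ± 0.17, edgeR adjusted p = 0.000653). Its span overlaps that of Map3k12. Summed levels of 7 cardiomyocyte markers were 85165 and 90341 CPM in Trbp-cKO, against 76792 and 76213 CPM in WT. Of these 7 markers, 3 rose (Myh6, Tnnt2 and Ryr2) and 1 fell (Myl2) in edgeR and in DESeq2. Over all tested genes 5.17% rose and 4.2% fell in edgeR. Summed levels of 3 lung epithelial markers were at most 0.388 CPM in any library. All 5 tested erythroid markers fell in edgeR and 2 in DESeq2 (Hba-a1 and Hba-a2, near-identical genes with the same counts), beside 4.2% of all tested genes lower in edgeR, with sums of 536 and 539 CPM in Trbp-cKO, against 659 and 757 CPM in WT, and their part in the results was not tested. Over all genes 705 rose and 572 fell, and with total count scaling 541 rose and 726 fell.

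Conditional knockout of Trbp came with no called change in the interferon and dsRNA-sensing genes. Tarbp2 mRNA was lowered and not absent in these ventricles, which limits what the comparison can show. Of the 32, 30 had counts high enough to test. In edgeR 0 of the 30 rose, where 5.17% of 13625 tested genes did, and 0 fell, where 4.2% did (adjusted p of 0.05). At an unadjusted p under 0.05 there were 2, Ifit2 and Mavs, both lower in Trbp-cKO, while 23.9% of all tested genes were at such a p. DESeq2 called 0 of the 30 and had 0 at an unadjusted p under 0.05. Over all genes DESeq2 called 433 higher and 307 lower of 14221 tested, fewer than edgeR. These totals also apply to the DESeq2 counts of the further lists below. The share of all genes at an unadjusted p under 0.05 in DESeq2 was not counted. The median log2 fold change of the 30 was -0.06, beside 0.00 over all tested genes, with 11 positive and 19 negative. Values ran from -0.65 for Ifi44 to 0.52 for Mx2. In bulk tissue, fewer cells of a type and less RNA per cell cannot be told apart.

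The width of the interval differed by gene. For 19 of the 30, the 95% interval of the log2 fold change lay within 1 on either side of 0, and for 8 of those within 0.5. The 8 are Ddx58, Tlr3, Mavs, Trim25, Irf3, Stat2, Parp14 and Ifitm3, and the narrowest of the 30 intervals was that of Trim25 at -0.11 to 0.20. In the other 11 the interval reached past 1 in at least 1 direction, so that a change of 1 in that direction lay within the interval. The widest interval was that of Rsad2, at -2.26 to 3.21. Without 1 of the 4 libraries, the sign turned for 23 of the 30, and 7 kept theirs (Ddx58, Tlr3, Mavs, Trim25, Oas2, Ifit2 and Ifi44).

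**Figure D1:**
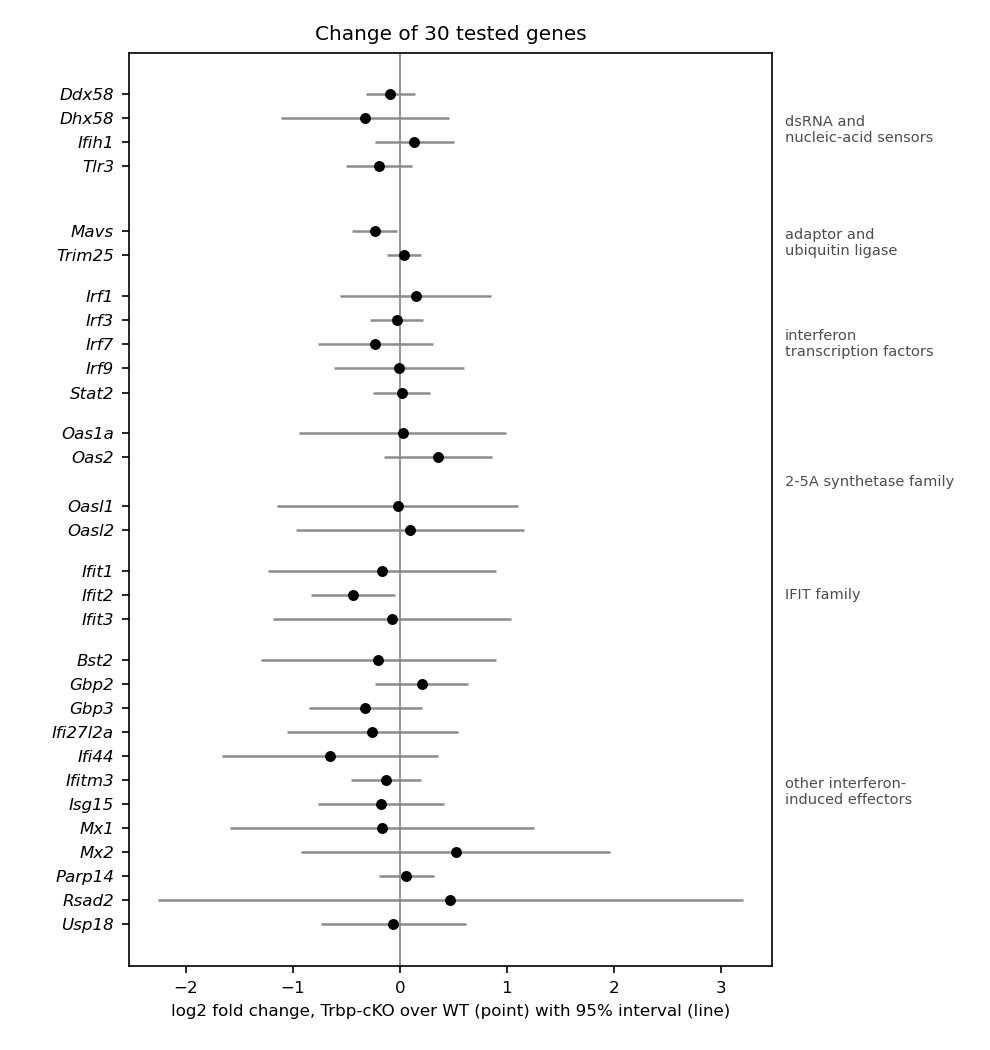
Log2 fold change of the 30 tested genes, Trbp-cKO over WT (points), with the 95% interval from the edgeR fit (lines), ordered by role. Intervals of Ifit2 and Mavs end below 0, at -0.05 and -0.02, and no gene passed at the adjusted threshold.

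Among the 4 tested sensors, Ddx58 (chromosome 4, 40203777 to 40239825), which encodes the RNA helicase RIG-I, was the steadiest. It had 25.4 and 23.0 CPM in Trbp-cKO, against 24.4 and 27.1 CPM in WT (log2 fold change -0.09 ± 0.10, 95% interval -0.32 to 0.14). The genotypes overlapped, and all 4 libraries lay close together. Ifih1 (chromosome 2, 62595618 to 62646255), the gene of the long-dsRNA helicase MDA5, had 15.4 and 14.3 CPM in Trbp-cKO, against 11.6 and 15.5 CPM in WT (0.14 ± 0.17, interval -0.24 to 0.51). Its lowest and highest libraries were both WT. Tlr3, which detects dsRNA in endosomes, had 19.0 and 15.2 CPM in Trbp-cKO, against 19.8 and 19.3 CPM in WT (-0.19 ± 0.14). Both Trbp-cKO libraries were below both WT libraries, but replicate 1 was below by little, and the gene did not pass (edgeR adjusted p = 0.441). Dhx58, which encodes the regulatory helicase LGP2, had 2.25 and 2.02 CPM in Trbp-cKO, against 1.89 and 3.59 CPM in WT, with WT at both ends. Zbp1, a sensor of left-handed nucleic acid, had only 7 and 1 counts in Trbp-cKO, against 3 and 5 counts in WT, and was too low to test.

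Downstream of RIG-I and MDA5, Mavs (chromosome 2, 131234063 to 131248025) had slightly lower values in Trbp-cKO and did not pass. It had 93.3 and 77.1 CPM in Trbp-cKO, against 101 and 99.0 CPM in WT. The groups did not overlap, the Trbp-cKO libraries lay further apart than the WT libraries, and the log2 fold change was -0.23 ± 0.09 (edgeR adjusted p = 0.165). Without Trbp-cKO replicate 1 the value was -0.38 ± 0.08 and passed (edgeR adjusted p = 0.0159), which was the only call of any of the 32 in the 11 alternatives run. Non-overlap was seen for 3 of the 30 genes, Mavs, Tlr3 and Ifit2, all with Trbp-cKO below WT, where 54.6% of all tested genes did not overlap. Trim25, a ubiquitin ligase that activates RIG-I, had 76.5 and 74.1 CPM in Trbp-cKO, against 71.2 and 75.1 CPM in WT (0.04 ± 0.07). Its libraries differed little in either genotype.

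The transcription factors of the pathway did not pass either. Irf3, which is present before any infection and is switched on by phosphorylation, had 42.8 and 35.1 CPM in Trbp-cKO, against 38.2 and 41.3 CPM in WT (-0.03 ± 0.11, interval -0.27 to 0.22). Irf7, itself an interferon-induced gene that amplifies the response, had 8.60 and 5.61 CPM in Trbp-cKO, against 7.31 and 9.40 CPM in WT (-0.23 ± 0.24). For both, Trbp-cKO replicate 2 was the lowest library. Irf9 and Stat2, partners in the factor that carries the type I interferon signal to the genome, stood at -0.0045 ± 0.23 and 0.02 ± 0.12, and Stat2 turned to -0.02 with total count scaling. Irf1, a factor that follows interferon gamma and inflammatory signals, had 23.1 and 25.5 CPM in Trbp-cKO, against 16.7 and 27.5 CPM in WT (0.15 ± 0.26), again with WT at both ends.

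The 2-5A synthetases make the messenger that activates RNase L on dsRNA. The 5 genes of the family described here, with the synthetase-like Oasl1 and Oasl2 among them, lie on chromosome 5. Oas2 (chromosome 5, 120730333 to 120749886) had 10.1 and 7.03 CPM in Trbp-cKO, against 5.88 and 7.56 CPM in WT. Trbp-cKO replicate 1 stood above the other 3 libraries, and the log2 fold change of 0.36 ± 0.22 did not pass (edgeR adjusted p = 0.374). Oasl2, a 2-5A synthetase-like gene, had 11.9 and 8.07 CPM in Trbp-cKO, against 6.33 and 12.6 CPM in WT (0.10 ± 0.40). Each genotype had 1 high and 1 low library. Oasl1, a translational repressor of Irf7 in the mouse, stood at -0.02 ± 0.50, and Oas1a, which has the near-identical neighbour Oas1g, at 0.03 ± 0.43 (-0.01 with total count scaling). Oas3, at 4 and 1 counts in Trbp-cKO, against 4 and 2 counts in WT, was too low to test.

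The Ifit genes on chromosome 19 encode proteins that bind foreign RNA. None of the 3 passed, and for Ifit1 and Ifit3 replicates of a genotype lay further apart than the genotypes. Ifit1 (chromosome 19, 34640889 to 34650009), whose span overlaps Ifit1bl1, had 5.03 and 3.21 CPM in Trbp-cKO, against 2.94 and 6.49 CPM in WT (-0.16 ± 0.43, edgeR adjusted p = 0.870). Ifit3 had 3.56 and 2.17 CPM in Trbp-cKO, against 1.81 and 4.36 CPM in WT (-0.07 ± 0.46), and it has a near-identical neighbour, Ifit3b, with which it may share reads. The order of the 4 libraries was the same in both genes, with WT at the top and at the bottom. Ifit2 had 15.3 and 12.0 CPM in Trbp-cKO, against 16.2 and 20.9 CPM in WT, at -0.44 ± 0.17 (interval -0.83 to -0.05, edgeR adjusted p = 0.163). It was lower in both Trbp-cKO libraries, its replicates lay closer together than the genotypes, and its adjusted p was the smallest of the 30.

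Of the 12 remaining effectors, 4 had a positive and 8 a negative log2 fold change, and 0 passed in edgeR or DESeq2, also at an unadjusted p under 0.05. Rsad2 (chromosome 12, 26442743 to 26456452), the gene of the antiviral enzyme viperin, had 52.6 and 31.99 CPM in Trbp-cKO, against 17.9 and 43.8 CPM in WT (0.47 ± 0.69, edgeR adjusted p = 0.772). Isg15, a ubiquitin-like modifier, had 4.41 and 3.51 CPM in Trbp-cKO, against 3.62 and 5.43 CPM in WT (-0.17 ± 0.26). In both genes the libraries of the genotypes were interleaved. Usp18, which removes Isg15 from proteins and dampens the receptor, stood at -0.06 ± 0.30.

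Ifi44, a cytoplasmic interferon-induced protein gene, had 5.50 and 3.81 CPM in Trbp-cKO, against 4.83 and 9.98 CPM in WT (-0.65 ± 0.40, edgeR adjusted p = 0.403). A single library, WT replicate 2, stood above the other 3. Mx2 had 3.87 and 2.54 CPM in Trbp-cKO, against 1.06 and 3.59 CPM in WT (0.52 ± 0.57), where WT replicate 1 was the low one. Mx1, known in mice as an influenza resistance gene, had 12 and 5 counts in Trbp-cKO, against 6 and 11 counts in WT. RefSeq annotates Mx1 and Mx2 of the C57BL/6J reference as transcribed pseudogenes on chromosome 16, so their counts report transcription and not a working protein.

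Bst2, the gene of tetherin, which holds budding virus at the cell surface, had 16.3 and 12.0 CPM in Trbp-cKO, against 11.2 and 21.5 CPM in WT (-0.20 ± 0.39). Ifi27l2a, an interferon-induced gene whose span overlaps Ifi27, had 5.27 and 3.29 CPM in Trbp-cKO, against 3.77 and 6.59 CPM in WT (-0.26 ± 0.34). WT was at both ends for Bst2, and WT replicate 2 was the highest library for both. The guanylate-binding GTPase genes Gbp2 and Gbp3 on chromosome 3 stood at 0.21 ± 0.19 and -0.32 ± 0.22, and they belong to a family of similar copies that may share reads. Ifitm3, which blocks virus entry in endosomes, had 66.3 and 60.1 CPM in Trbp-cKO, against 60.0 and 78.5 CPM in WT (-0.13 ± 0.13). Parp14, an ADP-ribosyltransferase, stood at 0.06 ± 0.11, with a 95% interval of -0.20 to 0.32.

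**Figure D2:**
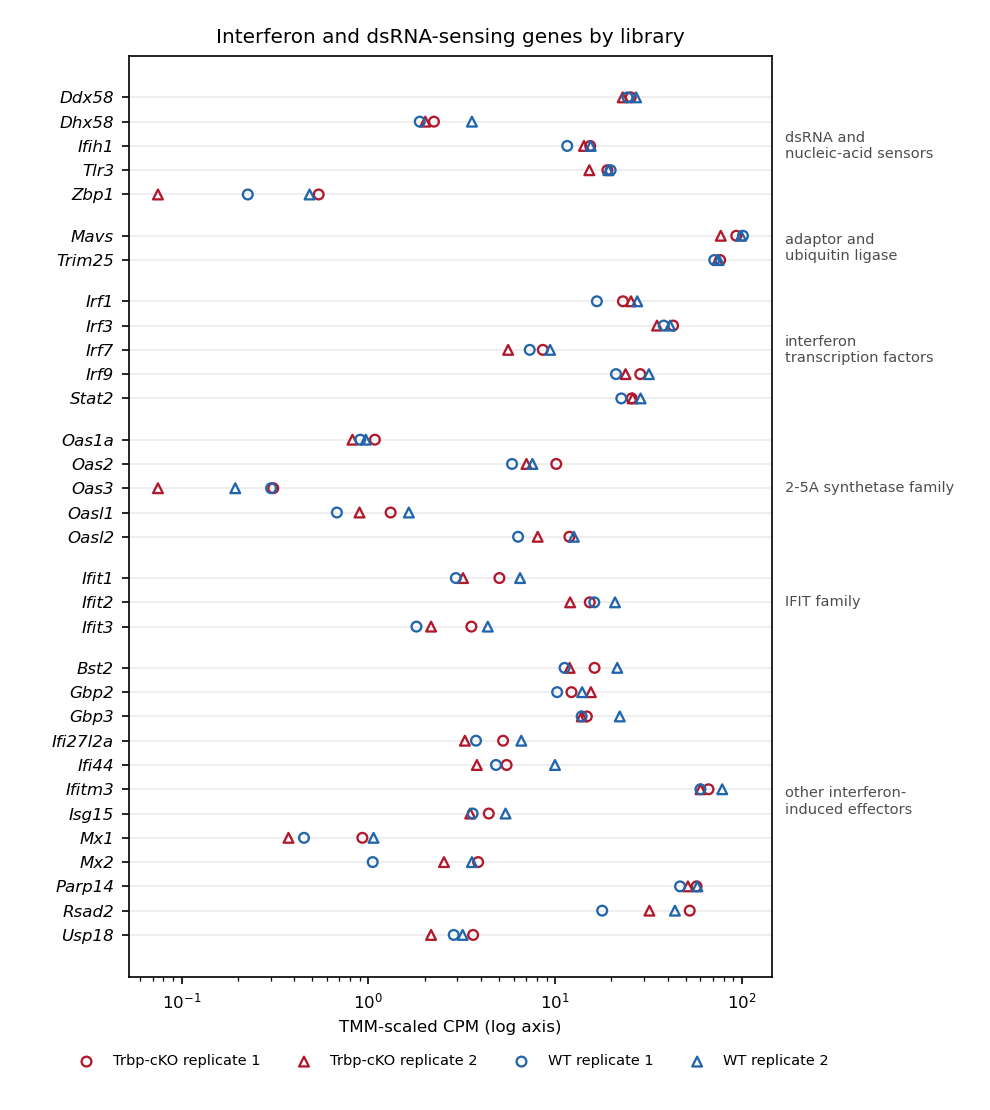
TMM-scaled CPM of the 32 genes in each library on a log axis, ordered by role. Trbp-cKO libraries are red and WT libraries blue. Circles are replicate 1 and triangles replicate 2. Trbp-cKO replicate 1 and WT replicate 2 are the rightmost pair for 24 of the 30 tested genes, the exceptions being Tlr3, Mavs, Irf1, Stat2, Ifit2 and Gbp2, while Ddx58 and Trim25 lie close together in all 4.

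Most of the 30 tested genes differed more between libraries of the same genotype than between the genotypes. In 29 of the 30 tested genes the larger of the 2 differences within a genotype exceeded the log2 fold change between genotypes, against 57.3% of all tested genes. The differences went the same way for most of them. Trbp-cKO replicate 1 was above Trbp-cKO replicate 2 in 27 of 30, and WT replicate 2 above WT replicate 1 in 28 of 30, where 50.5% and 50.4% of all tested genes were. The order of replicates to compare was chosen after the values were seen. Trbp-cKO replicate 1 and WT replicate 2 were the 2 highest of the 4 libraries for 24 of the 30, against 11.9% of all tested genes. Summed over the 32 genes, levels were 653 and 557 CPM in Trbp-cKO replicates 1 and 2, against 548 and 701 CPM in WT replicates 1 and 2.

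For part of the genes the gap was larger than counting error. An exact 95% interval (Clopper-Pearson) of the ratio of 2 libraries, which covers counting error only, lay above 1 for Trbp-cKO replicate 1 over replicate 2 in 16 of 30 genes (12.2% of all tested genes) and for WT replicate 2 over replicate 1 in 20 of 30 (9.05% of all). Both intervals lay above 1 for 10 of the 30, against 1.83% of all. For Rsad2 the ratio was 1.64 (1.45 to 1.86) in Trbp-cKO and 2.45 (2.09 to 2.88) in WT. For Ifit1 it was 1.57 (1.05 to 2.36) in Trbp-cKO and 2.21 (1.47 to 3.37) in WT. In the opposite direction, Gbp2 had a ratio of 0.787 (0.636 to 0.973) in Trbp-cKO and one of 1.36 (1.07 to 1.73) in WT. These ratios compare libraries and not conditions. WT replicate 2 was the library with the fewest counts. Trbp-cKO replicate 1 had slightly fewer counts than replicate 2 (13156455 against 13540485) and slightly more than WT replicate 1 (13113013). The part of library size in the gap was not tested.

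The size of the gap differed by role. Median log2 ratios of WT replicate 2 over replicate 1 were 1.12 for the 3 Ifit genes, 0.73 for the 12 other effectors, 0.67 for the 4 tested genes of the 2-5A synthetase family, 0.36 for the 5 transcription factors, 0.28 for the 4 tested sensors and 0.02 for Mavs and Trim25. In the Trbp-cKO pair the medians were 0.63, 0.48, 0.52, 0.26, 0.14 and 0.16 in the same order of roles. Single genes departed from this. Gbp2, Irf1 and Stat2 were lower in Trbp-cKO replicate 1 than in replicate 2, and Usp18 had a gap of 0.72 in Trbp-cKO but 0.15 in WT. Across the 30 genes, which are not independent and share the 4 libraries, the Pearson correlation of the 2 within-genotype differences was 0.47, and over all tested genes it was -0.17. Genes with the response element core in their promoter window had a median WT gap of 0.51 (12 tested) and those without it 0.37 (11 tested), while in Trbp-cKO the medians were 0.23 and 0.32.

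**Figure D3:**
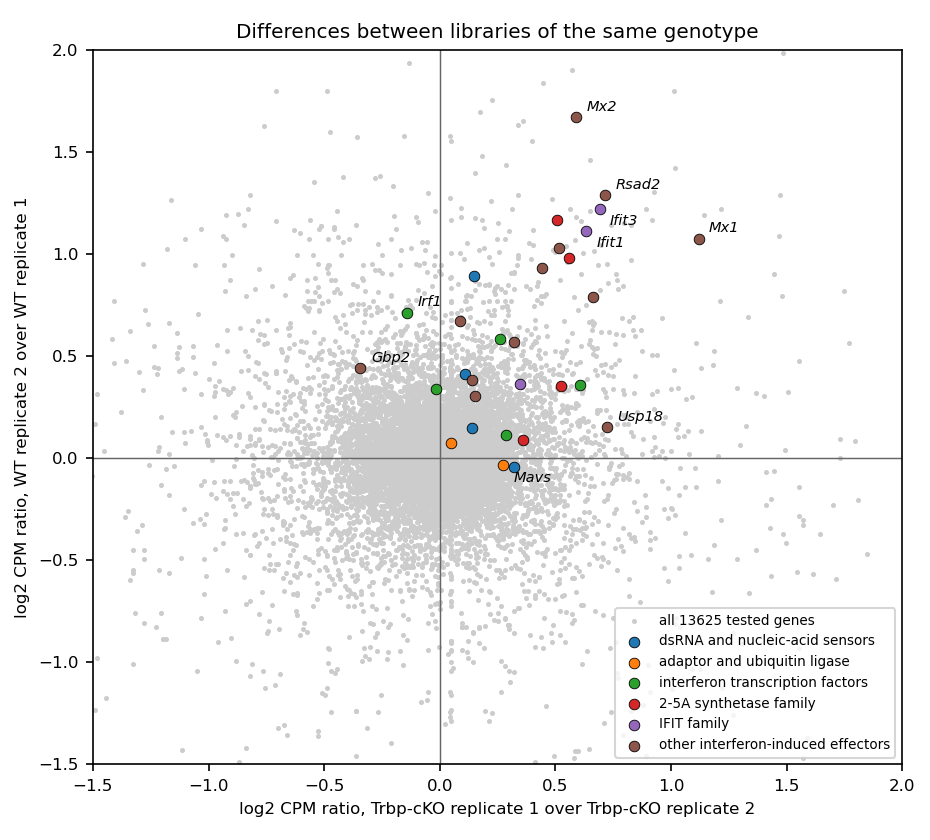
Each point is a gene. The x axis is the log2 CPM ratio of Trbp-cKO replicate 1 over Trbp-cKO replicate 2 and the y axis that of WT replicate 2 over WT replicate 1. Coloured points are the 30 tested interferon and dsRNA-sensing genes by role and grey points all 13625 tested genes, of which 119 fall outside the axes. The coloured points crowd the upper right, with Mx2, Rsad2, Ifit3, Ifit1 and Mx1 farthest out.

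Markers of neutrophils, B cells and T cells summed higher in Trbp-cKO replicate 1 and WT replicate 2 than in the other replicate of that genotype. Summed neutrophil markers had 3.87 and 0.972 CPM in Trbp-cKO, against 2.34 and 5.52 CPM in WT (Elane was at 0 counts in all 4). B cell markers summed to 6.27 and 2.47 CPM in Trbp-cKO, against 4.45 and 5.62 CPM in WT, and T cell markers to 3.17 and 2.17 CPM in Trbp-cKO, against 3.54 and 4.36 CPM in WT. Trbp-cKO replicate 1 was above replicate 2 for 2 of 2 tested neutrophil, 4 of 4 B cell and 2 of 2 T cell markers, and WT replicate 2 was above replicate 1 for 2, 3 and 2 of them. The 3 T cell markers too low to test did not share this order, with Cd3d at 3 and 2 counts in Trbp-cKO, against 6 and 1 counts in WT. The macrophage sum was 255 and 259 CPM in Trbp-cKO, against 228 and 261 CPM in WT. That sum followed the interferon genes in the WT pair only, with 10 of 11 markers higher in WT replicate 2 and 5 of 11 in Trbp-cKO replicate 1. NK cell markers were at most 0.485 CPM in sum. Plasmacytoid dendritic cell markers summed to 1.08 and 1.12 CPM in Trbp-cKO, against 1.43 and 1.36 CPM in WT. Fibroblast markers summed to 1208 and 1348 CPM in Trbp-cKO, against 1414 and 1330 CPM in WT. Both sums had the opposite order in each pair. Smooth muscle and pericyte markers summed to 1403 and 2114 CPM in Trbp-cKO, against 1716 and 1962 CPM in WT. Endothelial markers summed to 1454 and 1432 CPM in Trbp-cKO, against 1380 and 1374 CPM in WT. The part of any of these cell types in the level of the interferon genes was not tested.

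The 4 interferon genes that were looked up were not detected, and other interferon genes were not read. Ifnb1, Ifna4, Ifng and Ifnl3 had 0 counts in all 4 libraries, 49961130 counts in all. If the level was the same in both genotypes, this allows up to 0.0600 CPM for each (3 counts). Within a single library the same 3 counts allow 0.222 to 0.296 CPM. The receptor and signalling genes of the same list were present. Of its 14 tested genes 0 passed in edgeR, with 3 at an unadjusted p under 0.05, and DESeq2 called 0 with 1 at such a p. Over all tested genes in edgeR, 5.17% rose, 4.2% fell and 23.9% were at such a p. Ifngr2, a chain of the interferon gamma receptor, had 295 and 305 CPM in Trbp-cKO, against 260 and 247 CPM in WT (0.24 ± 0.07, edgeR adjusted p = 0.0625), and Jak2, the kinase bound to it, had 47.2 and 46.5 CPM in Trbp-cKO, against 38.8 and 39.7 CPM in WT (0.25 ± 0.08, edgeR adjusted p = 0.0871). Both were higher in Trbp-cKO without overlap, where 54.6% of all tested genes did not overlap. Among settings that keep every library, Ifngr2 passed only in edgeR with no filter (adjusted p = 0.0388). It did not pass in DESeq2 (adjusted p = 0.121). With 1 library left out its log2 fold change ran from 0.20 to 0.28.

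In the list of other nucleic-acid sensing genes, 0 of 23 passed in edgeR, with 4 at an unadjusted p under 0.05, and DESeq2 had 0 at either. The edgeR shares over all tested genes were 5.17% higher, 4.2% lower and 23.9% at such an unadjusted p. The member with the smallest p was Eif2ak2 (chromosome 17, 78850504 to 78882572), which encodes PKR, the kinase that Trbp restrains, and whose span overlaps Gm6548 and Gm26637. It had 19.4 and 16.1 CPM in Trbp-cKO, against 22.1 and 24.7 CPM in WT (-0.40 ± 0.13, edgeR adjusted p = 0.0869). Both Trbp-cKO libraries were below both WT libraries, where 54.6% of all tested genes did not overlap. Among settings that keep every library, Eif2ak2 passed only in edgeR with no filter (adjusted p = 0.0385). It did not pass in DESeq2 (adjusted p = 0.426) or with transcripts summed (edgeR adjusted p = 0.109). With 1 library left out its log2 fold change ran from -0.54 to -0.27. Trex1, a DNA exonuclease that clears cytosolic DNA, stood at 0.37 ± 0.15 (edgeR adjusted p = 0.165). Prkra, the gene of PACT, a paralogue of Trbp that activates PKR, and Adar, which edits dsRNA, were looked up after the other values were seen, and stood at -0.11 ± 0.14 and -0.09 ± 0.11.

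Among 45 other interferon-induced genes 39 were tested, of which 2 fell and 0 rose in edgeR, with 3 at an unadjusted p under 0.05, and DESeq2 called 1. Over all tested genes 4.2% fell, 5.17% rose and 23.9% were at such a p. The pair was Dtx3l and Parp9, a ubiquitin ligase and an ADP-ribosyltransferase known as partners, which lie next to each other on chromosome 16 with overlapping spans (35926515 to 35939027 and 35938470 to 35972621), so that reads from the overlap cannot be told apart. Dtx3l had 20.6 and 21.0 CPM in Trbp-cKO, against 29.9 and 32.7 CPM in WT (-0.59 ± 0.09, edgeR adjusted p = 0.00508, DESeq2 adjusted p = 0.0307). Parp9 had 24.2 and 22.05 CPM in Trbp-cKO, against 30.2 and 30.5 CPM in WT (-0.39 ± 0.09, edgeR adjusted p = 0.0290). Replicates of a genotype lay close together in both genes. With WT replicate 1 left out Dtx3l had an edgeR adjusted p of 0.0536, and with WT replicate 2 left out one of 0.103. Parp9 lost its call in DESeq2 (adjusted p = 0.297), with transcripts summed (edgeR adjusted p = 0.0527), and with Trbp-cKO replicate 2 (0.136), WT replicate 1 (0.177) or WT replicate 2 (0.209) left out. The median of the 39 was -0.07, and WT replicate 2 was above WT replicate 1 in 36 of them and Trbp-cKO replicate 1 above replicate 2 in 28.

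Class I antigen presentation genes showed 0 of 12 calls, with 0 at an unadjusted p under 0.05 in edgeR or DESeq2, and a median of -0.10. Psmb9, an immunoproteasome subunit, had 3.33 and 3.06 CPM in Trbp-cKO, against 3.69 and 6.203 CPM in WT (-0.61 ± 0.28, edgeR adjusted p = 0.225), and Psme1, a proteasome activator subunit, stood at -0.11 ± 0.10. Of 11 tested NF-kB response genes, Il1b rose, with 3.02 and 1.42 CPM in Trbp-cKO, against 0.603 and 0.582 CPM in WT (1.88 ± 0.49, edgeR adjusted p = 0.0423), and 0 fell. Il1b encodes an inflammatory cytokine, and 4 of the 11 genes were at an unadjusted p under 0.05, where 5.17% of all tested genes rose and 23.9% were at such a p. DESeq2 called 0 of the 11 (adjusted p = 0.202 for Il1b), with 2 at such a p, and the call was lost with transcripts summed (edgeR adjusted p = 0.0650), and with Trbp-cKO replicate 1 (0.263), WT replicate 1 (0.2504) or WT replicate 2 (0.235) left out. Without Trbp-cKO replicate 1 its log2 fold change was 1.25.

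**Figure D4:**
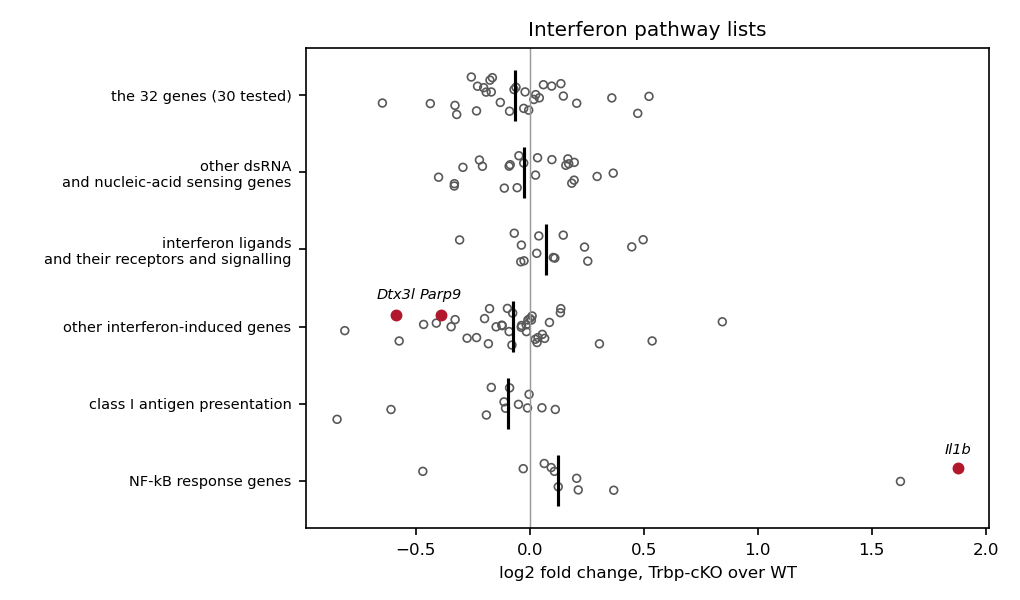
Log2 fold change of each tested gene, Trbp-cKO over WT, for the 32 genes and 5 further pathway lists. Filled points passed at an edgeR adjusted p of 0.05 (Dtx3l, Parp9 and Il1b), open points did not, and black bars are list medians, from -0.10 to 0.13.

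None of the 32 genes was among the authors' 746 differential transcripts, whose q-values go up to 0.00972. Their full deposited table holds 30635 transcript rows. A p-value under 0.05 was given in the authors' deposited table for 3 of the 32, namely Ifi44 (ratio 0.641, q-value 0.0845), Rsad2 (ratio 1.38, q-value 0.0884) and Ifit2 (ratio 0.737, q-value 0.206). The share of all transcripts at such a p-value in that table was not counted, so the 3 cannot be set against it. For Ifi44 and Rsad2 the libraries of the genotypes overlapped.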

How the data were processed

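mRNA of 2 Trbp-cKO and 2 WT ventricle libraries was analysed. Per the labels' protocols, Trizol was used on frozen tissue and an Illumina TruSeq RNA kit on the total RNA. Tools in the submitters' processing notes, which give no roles, are Bowtie 0.12.9, SAMtools 0.1.16, CASAVA 1.8.2, edgeR and cutadapt 0.9.5, with mm10 as the build. How reads were counted, by strand or not, and what became of reads with several matches is not stated by the sources at hand. The deposited table holds counts for RefSeq transcripts, unnormalized, as its whole numbers and unequal totals show. For each transcript the authors also deposited the ratio between genotypes, Trbp-cKO over WT, its p-value and its q-value, and these entered no test. The 4 per-sample columns of the authors' differential list were not used.

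Of 30635 rows, 30016 accessions matched RefSeq (GRCm38.p6, the coordinates of mm10), and 110 rows without a name (0.117% to 0.140% of counts) were left out. The transcript with the highest total was kept per gene, which gave 23360 genes. For each of the 32 genes only rows with its symbol in the table counted. The spans of 10 of the 32 overlap another gene.

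Counts were fitted in R 4.3.3 with edgeR 4.0.16 across all genes (filterByExpr, TMM, robust glmQLFit, glmQLFTest, Benjamini-Hochberg adjusted p of 0.05), after a test on simulated data. The SE is the log2 fold change over the square root of F, and its 95% interval uses the fit's degrees of freedom. Ratios of 2 libraries within a genotype use CPM + 0.1 on the log2 scale. Alternatives were DESeq2 1.42.0, other scalings and filters, summed transcripts, a replicate block and leaving out each library. Named are all 32 genes, Tarbp2, and per further list up to 4 passing genes or the 2 with the smallest p. The genes and lists were chosen with earlier results of these data known.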

Additional observations from a re-analysis of the deposited data

How the results depend on the processing

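No edgeR or DESeq2 setting called any of the 32 genes higher. Without Trbp-cKO replicate 1 edgeR called 1 lower (Mavs), so that leaving out 1 library gave 0 to 1 lower calls, and all other settings gave 0. The median log2 fold change was -0.11 to -0.03 over the settings that keep every library, and -0.26 to 0.18 without 1 library. Over all genes edgeR called 705 higher and 572 lower, DESeq2 433 and 307, and leaving out 1 library gave 126 to 684 higher and 125 to 487 lower calls, the fewest without either WT library. Total count scaling put Oas1a at -0.0150 and Stat2 at -0.0238, and the replicate block put Irf9 at 0.00762. These genes did not pass under any of these settings.

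Same-numbered libraries deviated together weakly (correlation over genes 0.18), and with 2 pairs this does not establish that numbers pair the libraries. With the replicate block edgeR called 549 genes higher and 439 lower over all genes and 0 of the 32, and Parp9 was not called (adjusted p = 0.0578).

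Leaving out 1 library turned the sign of these genes, whose log2 fold changes then ran over these ranges: Oas1a -0.18 to 0.21, Oasl2 -0.34 to 0.65, Parp14 -0.0894 to 0.21, Ifit1 -0.66 to 0.48, Ifit3 -0.61 to 0.65, Oasl1 -0.57 to 0.69, Irf3 -0.17 to 0.11, Irf7 -0.57 to 0.0497, Irf9 -0.28 to 0.30, Usp18 -0.48 to 0.27, Mx1 -0.95 to 0.50, Bst2 -0.61 to 0.32, Ifi27l2a -0.63 to 0.17, Psme1 -0.27 to 0.0356, Irf1 -0.18 to 0.53, Stat2 -0.15 to 0.19, Rsad2 -0.0529 to 1.23, Mx2 -0.16 to 1.59, Ifih1 -0.0639 to 0.35, Gbp2 -0.00655 to 0.43, Isg15 -0.45 to 0.12, Dhx58 -0.75 to 0.17, Gbp3 -0.63 to 0.0420 and Ifitm3 -0.31 to 0.0680. These genes did not pass in any of those edgeR fits, in which the lone library of a genotype is taken to vary like the others.

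Of 268 values of named genes under the settings that keep every library, 258 kept their sign and their side of the threshold. Precision is limited by 2 libraries a genotype and, for Zbp1, Oas3, Mx1, Oas1a and Oasl1, by few counts.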
